A study of Mus musculus with 4 samples.

Results

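The nuclear pore is the channel through which RNA and proteins pass between nucleus and cytoplasm, and its genes were examined here in mouse embryonic stem cells after a short exposure to bone morphogenetic protein 2 (BMP-2). The list of 32 genes was chosen by function, as pore subunits (nucleoporins) and 3 transport factors, and it was drawn up because 1 probe set of Pom121, a pore membrane protein, read higher after BMP-2 on these same arrays. Every probe set whose annotation names exactly 1 of these genes was taken. That gave 90 probe sets for 30 genes, of 18193 genes named on the array. No probe set was matched to the symbols Nup35 or Tpr, and these 2 genes were not analysed here. Of the 90 probe sets, 84 were bright enough to be tested, and each of the 30 genes had at least 1 among them.

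The RNA was that of E14Tg2A.4, a feeder-independent mouse embryonic stem cell line that lacks Hprt, so all 4 arrays share the genotype of 1 line. For 2 arrays the cells had been given BMP-2 at 25 ng/ml and held for 1 h, and for the other 2 arrays they were left untreated over the same time. Whether replicates are separate cultures is not stated in the labels, so all errors and p-values describe only how far these arrays differ, a spread that may be technical. Culture medium, serum and LIF are not given in the sources used here, although all of them can act on the same pathways as added BMP-2.

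Each array reported 45101 probe sets as MAS5 signals, a linear brightness per probe set. Median signals split by replicate number and not by treatment. They were 81.8 with BMP-2 and 82.4 without in replicate 1, and 94.9 and 94.6 in replicate 2. The 18S ribosomal RNA controls stood apart on untreated replicate 2, where they read 2599 to 6284 against 441 to 1521 on the other arrays. Some values without that array are given below. The cells carried the markers of their label. All 12 embryonic stem cell markers were bright, with group means from 3476 for Esrrb to 21990 for Dppa5a, and their summed signal was 110116 to 116108 with BMP-2 and 110219 to 116954 without. Of 10 fibroblast and feeder markers only Fn1, Thy1 and Col1a2 were bright enough to be tested. The other 7 (Col1a1, Col3a1, Postn, Lum, Dcn, Pdgfra and S100a4) had group means of at most 56.2, that of Pdgfra with BMP-2. Among these dim ones, groups did not overlap for Col1a1 (39.7 with BMP-2, 26.3 without), Lum (48 and 40.2) and S100a4 (29.4 ± 1.77 and 15.8 ± 0.107, SD, n = 2). Thy1 did not overlap in the other direction (212 and 236). Of all tested probe sets, 28.4% did not overlap, a share that leaves out probe sets as dim as those of Col1a1, Lum and S100a4. The summed signal of the 10 markers, nearly all from Fn1, was 7819 to 7991 with BMP-2 and 7785 to 7980 without.

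The pore is a ring of repeated protein units. Membrane nucleoporins anchor it in the nuclear envelope, an outer ring (the Y complex) and an inner ring form the scaffold, and proteins rich in phenylalanine-glycine repeats fill the channel and bind transport receptors. Importins and exportins carry their cargo through this mesh, and the small GTPase RAN, in its GTP form inside the nucleus and its GDP form outside, sets the direction of transport. SMAD proteins activated by BMP receptors have to enter the nucleus by this route. Most of these genes are transcribed in any growing cell.

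Promoter sequences of 27 of the 30 genes were found in RefSeq (GRCm38.p6), as 30 windows from 250 bases before to 50 bases after a start of transcription. They were compared because windows of such widely used genes are often rich in CpG dinucleotides. A link between these windows and the array differences was not tested. The windows held a median of 28 CpG dinucleotides (3 to 58), against a median of 7 (0 to 67) over all 32851 promoter windows of the table. Their G and C content had a median of 64.2% against 52.7%. The windows of the 3 membrane nucleoporins are shown with each CpG in capitals. They lie at chr5:135394497-135394796, minus strand for Pom121, chr4:107367797-107368096, plus strand for Ndc1 and chr6:91116777-91117076, minus strand for Nup210, and hold 41, 18 and 41 CpG dinucleotides.
Pom121: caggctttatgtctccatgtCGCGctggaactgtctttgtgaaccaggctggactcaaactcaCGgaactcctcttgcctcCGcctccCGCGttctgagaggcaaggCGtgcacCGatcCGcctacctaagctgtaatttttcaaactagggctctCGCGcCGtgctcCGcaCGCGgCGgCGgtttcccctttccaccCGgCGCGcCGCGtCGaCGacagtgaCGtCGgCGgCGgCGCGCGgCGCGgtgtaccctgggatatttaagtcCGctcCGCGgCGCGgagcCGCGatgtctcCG
Ndc1: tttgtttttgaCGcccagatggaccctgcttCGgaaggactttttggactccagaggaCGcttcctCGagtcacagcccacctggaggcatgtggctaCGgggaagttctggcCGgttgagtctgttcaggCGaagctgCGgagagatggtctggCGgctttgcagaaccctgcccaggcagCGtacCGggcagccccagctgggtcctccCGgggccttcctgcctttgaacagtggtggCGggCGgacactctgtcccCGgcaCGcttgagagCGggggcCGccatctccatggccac
Nup210: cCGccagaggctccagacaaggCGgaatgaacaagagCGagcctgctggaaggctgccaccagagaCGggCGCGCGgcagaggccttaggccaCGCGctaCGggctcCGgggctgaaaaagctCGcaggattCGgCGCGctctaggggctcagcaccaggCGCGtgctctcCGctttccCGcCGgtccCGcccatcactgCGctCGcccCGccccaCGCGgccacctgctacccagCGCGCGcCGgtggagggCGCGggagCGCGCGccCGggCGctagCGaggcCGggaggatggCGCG

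Short motifs were counted on both strands of these windows, each motif on its own, so that matches of different motifs may share bases. GGCGCC, the GC-rich letters bound by SMAD1 and SMAD5, is present in 6 of the 30 windows, or 20%, and in 11.9% of all windows. Its carriers are Gle1, Nup188, Ran, Nup133, Nup153 and Nup155. CAGAC, letters of the SMAD binding element, is present in 36.7% of the windows and in 49.6% of all. CCGGAAG, read by ETS factors, is present in 30.0% against 8.86%, with 3 matches at Nup107. Its carriers are Gle1, Rae1, Nup54, Sec13, Nup37, Nup107, Nup155 and Aaas. Nup37 has more than 1 window, and each of them holds both CCGGAAG and CAGAC and is counted. TGCGCA, the core of the NRF1 motif, is present in 13.3% against 7.76%, with 3 matches at Nup50. The Pom121 window printed above holds none of the 4, that of Nup210 holds CAGAC once and that of Ndc1 holds it 2 times. Each of the 3 motifs more frequent here than over all windows contains a CpG dinucleotide, and the less frequent one does not. The pore windows are themselves richer in CpG dinucleotides (median 28 against 7). The shares were not compared with windows of similar base composition, so enrichment beyond composition was not tested. A match describes letters and is no evidence of binding.

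Treated and untreated cells were compared to ask whether other pore genes shared the higher signal of the Pom121 probe set. None of them passed the test. Of the 84 tested pore probe sets 1 was called by limma at an adjusted p of 0.05, the Pom121 probe set that prompted the list, where 0.0185% of all 27022 tested probe sets were called. That call was lost in 3 of 12 alternative fits, with no filter on dim probe sets (limma adjusted p = 0.104), with no trend of the variance on signal (1.00), and with each array centred on the median of all its probe sets (0.109). The count follows from how the list arose, and nothing is read from it. No probe set passed among the 82 of the other 29 genes (0 by limma, 1 at an unadjusted p under 0.05, against 3.07% of all tested probe sets). In RNA from a whole culture, a change in the number of cells that hold a transcript and a change in the amount per cell cannot be told apart.

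POM121 is a single-pass membrane protein that is known to be needed early in pore assembly. Its brighter probe set read 4417 and 4301 on the treated arrays and 2445 and 2652 on the untreated arrays. Both treated arrays lay above both untreated ones, and the difference was 0.78 ± 0.08 log2 (SE), or 1.71-fold, as a description of the value that chose the list. Within replicate numbers it was 0.85 and 0.70 log2, and leaving out any single array gave 0.72 to 0.83. The dimmer Pom121 probe set, whose identifier ends in _s_at, read 1094 and 902 with BMP-2 and 1024 and 1030 without. Here the groups overlapped, and the difference was -0.05 ± 0.12 log2 with a 95% interval of -0.32 to 0.22. The probe sets of this gene thus differed from each other by 0.82 log2, and their mean gave 0.36 log2. The _s_at ending marks a probe set that the array's maker expected to match more than 1 transcript. It is also carried by the brightest probe sets of Nup107, Seh1l and Nup54 below.

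**Figure D1:**
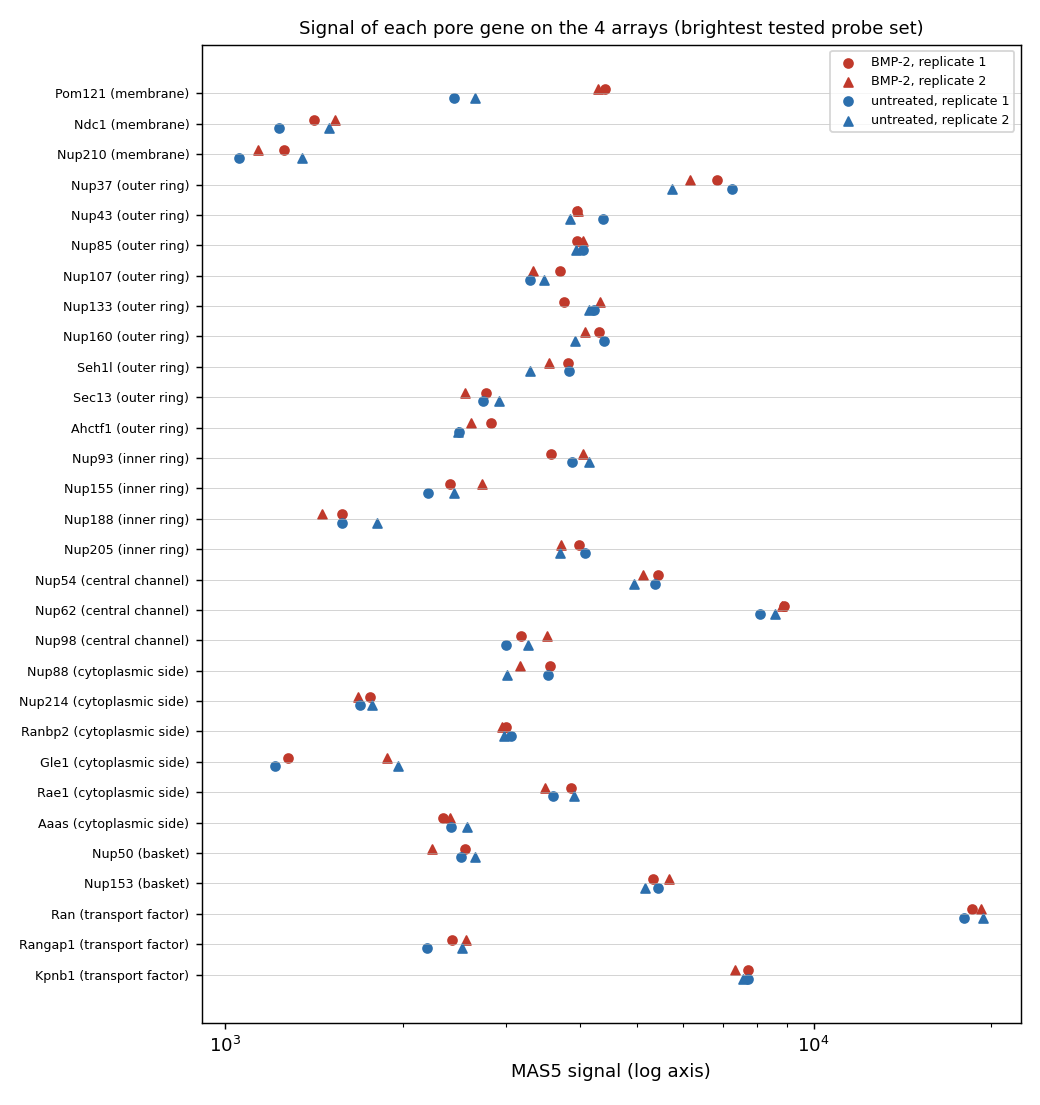
MAS5 signal (log axis) of the brightest tested probe set of each of the 30 genes, grouped by place in the pore, with red for BMP-2, blue for untreated, circles for replicate 1 and triangles for replicate 2. Pom121 shows the red points (4301 and 4417) clear of the blue (2445 and 2652), and apart from Ahctf1, Nup62 and Aaas the other rows have red and blue mixed.

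The other membrane nucleoporins did not share the difference. NDC1, which spans the membrane and recruits ALADIN, was read by 3 probe sets. The brightest gave 1416 and 1538 with BMP-2 and 1234 and 1497 without, overlapping groups that differed by 0.12 ± 0.12 log2 (interval -0.14 to 0.38). Its other probe sets differed by 0.02 and 0.18 log2. NUP210, or gp210, is a glycoprotein with most of its mass in the lumen of the envelope, and its level is known to vary between cell types. It read 1255 and 1135 with BMP-2 and 1055 and 1350 without. The treated arrays lay between the untreated ones, and the group means of 1195 ± 84.7 and 1203 ± 208 (SD, n = 2) were close. Within replicate numbers the difference was 0.25 log2 in replicate 1 and -0.25 in replicate 2.

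Outer ring genes, which build the Y-shaped scaffold unit, showed small differences in both directions. Of 9 genes, 6 were higher and 3 lower with BMP-2, with a median of 0.01 log2 and a range of -0.09 to 0.13. Untreated means ran from 2490 for Ahctf1 to 6505 for Nup37. The highest difference in this ring was that of Ahctf1, which encodes ELYS, the protein that seeds pore assembly on chromatin after mitosis. It read 2827 and 2610 with BMP-2 and 2497 and 2484 without, so the groups did not overlap, yet the interval of -0.07 to 0.32 log2 held 0. Its 3 other probe sets differed by 0.01, 0.13 and 0.23 log2. The lowest was Sec13, a subunit shared with the COPII vesicle coat, at 2664 ± 156 against 2828 ± 130 (-0.09 ± 0.09 log2).

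The core Y-complex subunits showed small differences too. NUP107 and NUP133 form the stem of the Y and NUP160 an arm, and their genes differed by 0.05, -0.05 and 0.01 log2. For Nup85, an arm subunit, the brightest probe set read 4002 ± 69.2 with BMP-2 and 3997 ± 79.4 (SD, n = 2) on untreated arrays, a difference of 0.0018 log2. A dimmer Nup85 probe set read 1594 and 1795 against 1796 and 2021, just short of touching, with -0.17 ± 0.11 log2. Nup43 and Nup37, which encode small subunits of the complex, lay at -0.05 and 0.01 log2. Seh1l, whose product works in the Y complex and also in nutrient signalling through the GATOR complex, was read by 7 probe sets with differences from -0.09 to 0.38. The value of 0.38 came from the dimmest of them, with signals of 50.1 to 75.8.

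**Figure D2:**
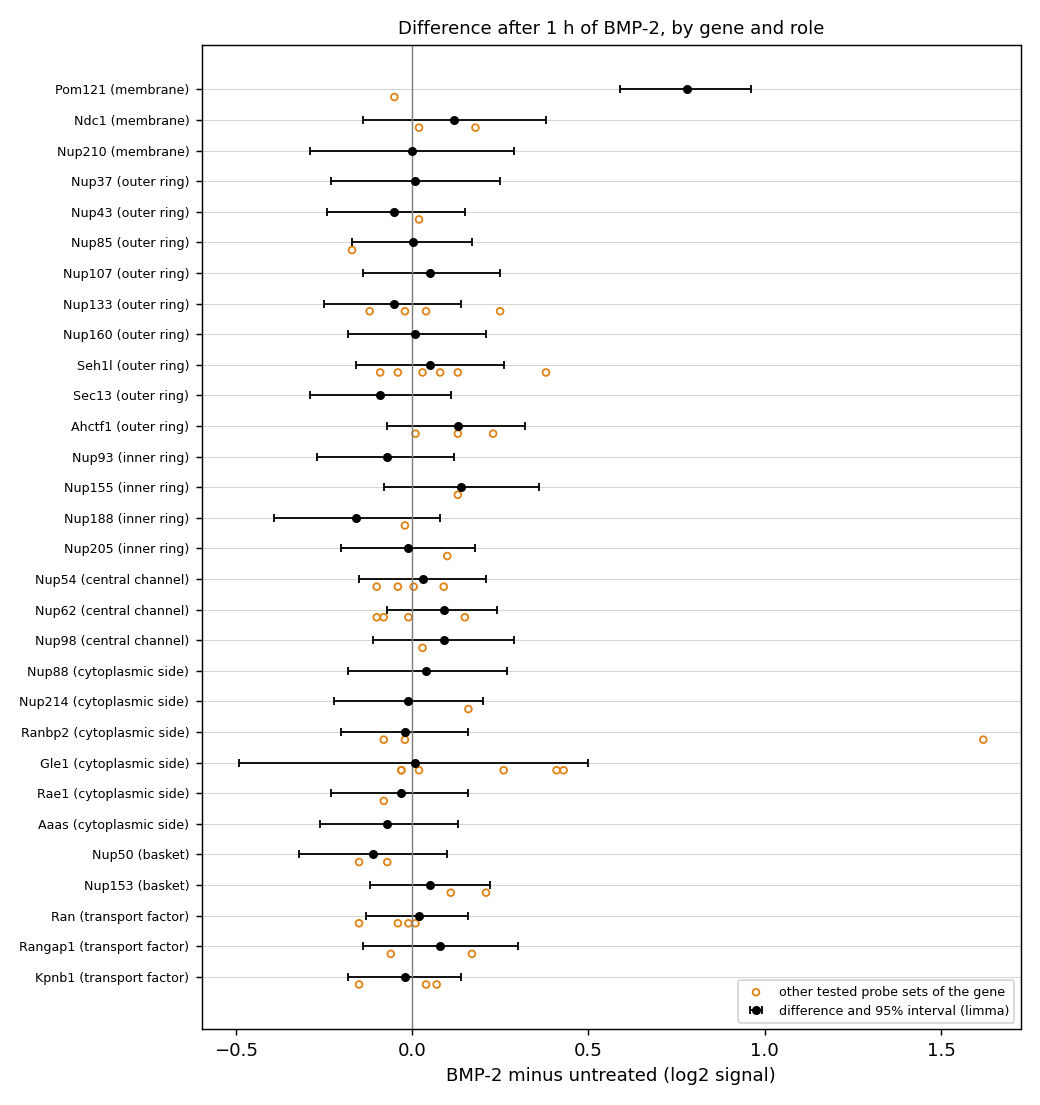
Difference between BMP-2 and untreated arrays in log2 signal for each gene, with black points and bars for the brightest tested probe set and its 95% interval from limma, and open orange circles for the gene's other tested probe sets. The intervals of 29 genes cross 0, that of Pom121 (0.59 to 0.96) belongs to the probe set that prompted the list, and the orange circle at 1.62 belongs to a dim Ranbp2 probe set.

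Inner ring genes gave the lowest gene value of the list and the highest after Pom121. These proteins tie the scaffold to the membrane and hold the channel proteins in place. Nup188 read 1576 and 1458 with BMP-2 and 1575 and 1810 without, a difference of -0.16 ± 0.11 log2 (interval -0.39 to 0.08). The replicate 1 arrays were level, and the difference lay in replicate 2 (-0.31 log2), so without untreated replicate 2 it was -0.05. Nup155, a scaffold protein that contacts the membrane, read 2404 and 2725 against 2209 and 2446, with overlapping groups and 0.14 ± 0.10 log2. A second Nup155 probe set read 1469 and 1509 against 1366 and 1352, without overlap, at 0.13 log2. Nup93, the linker of the inner ring, and Nup205, a large scaffold protein, differed by -0.07 and -0.01 log2.

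The channel nucleoporins were bright on both groups of arrays. Nup54 and Nup62 encode partners in the central trimer and Nup98 a protein whose repeats are a main part of the barrier. On its brightest probe set Nup62 read 8904 and 8835 with BMP-2 and 8110 and 8590 without. These groups did not overlap, and the difference was 0.09 ± 0.07 log2 (interval -0.07 to 0.24). A second bright Nup62 probe set went the other way, with 6513 and 6266 against 6828 and 6714, also without overlap (-0.08 ± 0.07 log2). The 5 probe sets of this gene ran from -0.10 to 0.15 log2, so no direction held over the gene. Nup98 differed by 0.09 ± 0.09 and Nup54 by 0.03 ± 0.08 log2.

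On the cytoplasmic side, 2 of 6 genes were higher and 4 lower, within -0.07 to 0.04 log2. Aaas encodes ALADIN, the protein that binds NDC1, and read 2347 and 2412 with BMP-2 and 2414 and 2569 without. The highest treated value nearly met the lowest untreated one, and the interval of -0.26 to 0.13 log2 held 0. Nup214, which docks export complexes, its partner Nup88, and Rae1, an mRNA export factor that binds NUP98, differed by -0.01, 0.04 and -0.03 log2.

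Gle1, which activates the helicase that strips proteins from mRNA as it leaves the pore, varied most between arrays of a group. Its brightest probe set read 1278 and 1881 with BMP-2 and 1214 and 1965 without. Replicate 2 was the higher array in both groups, by 0.56 and 0.69 log2, whereas treated and untreated means of 1580 ± 426 and 1590 ± 531 (SD, n = 2) differed by 0.01 ± 0.22 log2. Its interval of -0.49 to 0.50 was the widest among the 30 genes. Of the 6 other Gle1 probe sets, 3 dim ones lay at 0.26, 0.41 and 0.43 log2 without overlap between the groups, and the rest at -0.03 to 0.02. No Gle1 probe set passed the test.

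Ranbp2 encodes the large protein of the cytoplasmic filaments, which binds RAN and acts as a SUMO ligase. Its brightest probe set read 2999 and 2956 with BMP-2 and 3061 and 2972 without, with all 4 readings close together, at -0.02 ± 0.08 log2. A dim probe set of the gene read 119 and 162 against 117 and 17.5. It was the only tested pore probe set other than that of Pom121 with an unadjusted p under 0.05, at 1.62 ± 0.69 log2 (limma adjusted p = 1.00). That value rested on the single low reading of 17.5. Without untreated replicate 2 the difference was 0.25 log2, and without untreated replicate 1 it was 2.99 and passed (adjusted p = 0.0427). It also passed when arrays were centred on the median of all probe sets (adjusted p = 0.000501). The remaining Ranbp2 probe sets lay at -0.02 and -0.08 log2.

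**Figure D3:**
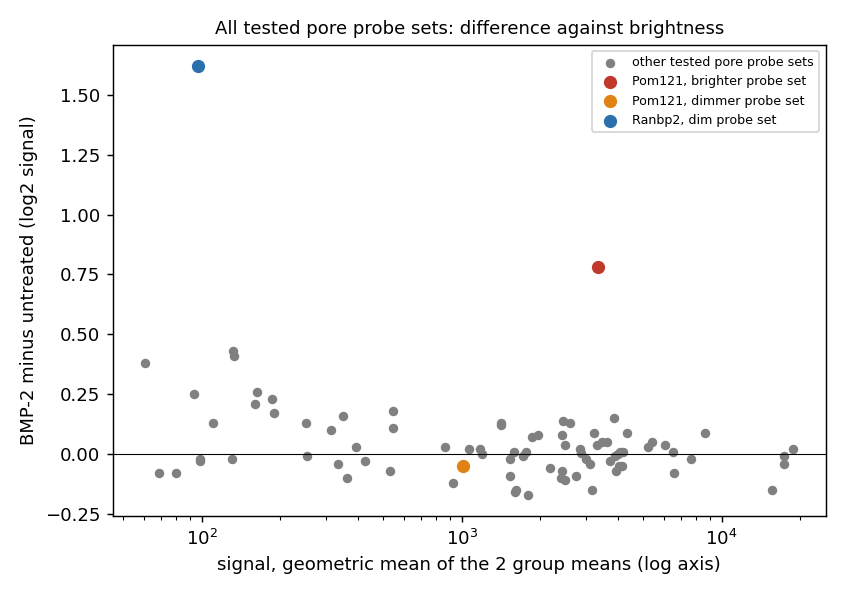
Difference in log2 signal between BMP-2 and untreated arrays (vertical) against signal (log axis) for the 84 tested pore probe sets, with the Pom121 pair and the dim Ranbp2 probe set in colour. Apart from the brighter Pom121 probe set at 0.78, those of signal above 500 lie between -0.17 and 0.18, and the scatter widens to the left.

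The nuclear basket was represented by Nup50 and Nup153. NUP50 promotes release of imported cargo, and its 3 probe sets all lay below 0, at -0.11, -0.15 and -0.07 log2. The middle one read 1503 and 1578 with BMP-2 and 1626 and 1794 without, with no overlap and an interval of -0.37 to 0.07. NUP153 anchors the basket and is known to bind SMAD proteins, and its 3 probe sets lay above 0, at 0.05, 0.11 and 0.21 log2. The brightest read 5324 and 5677 against 5435 and 5176, with overlapping groups.

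The transport factors showed small differences in both directions, and none passed. RAN was read by 4 probe sets with group means between 14849 and 18945 and by 1 with 4058 ± 116 against 4035 ± 7.71. The brightest gave 18604 and 19286 with BMP-2 and 17990 and 19424 without, a difference of 0.02 ± 0.06 log2 (interval -0.13 to 0.16). Identifiers of the 4 bright ones end in _x_at, as does that of the brightest Nup62 probe set. This ending marks probes that can also bind related sequences. Of the 4, 1 read 13559 and 16139 against 16448 and 16465 (-0.15 ± 0.08 log2, no overlap). Kpnb1, the importin beta that carries most classical cargo, read 7548 ± 275 against 7658 ± 119 (SD, n = 2), or -0.02 ± 0.07 log2. Its other probe sets lay at -0.15 (interval -0.42 to 0.13), 0.04 and 0.07 log2. Rangap1, whose product turns RAN to its GDP form in the cytoplasm, lay at 0.08 ± 0.10 log2 (interval -0.14 to 0.30). Its other probe sets lay at -0.06 and, on a dim one, at 0.17 log2 (interval -0.32 to 0.66).

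Over the 30 genes, each by its brightest tested probe set, 17 were higher and 13 lower with BMP-2 (56.7% higher), and the median difference was 0.01 log2. Over all 12976 tested genes 53.0% were higher, and the median was 0.01 log2. For the 29 genes other than Pom121 the differences ran from -0.16 to 0.14 log2. All 29 of their 95% intervals held 0, and the highest upper bound was 0.50, that of Gle1. The interval reached less than 0.3 log2 to either side of the value for 28 of the 29, so a change well under that size could not be told from 0 with 2 arrays per group. These intervals are not adjusted for the number of tests. A larger difference need not be called after adjustment, as that of Thoc5 (0.45 log2, below) was not. Limma gave each of the 29 an adjusted p of 1.00.

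Groups did not overlap for 4 of the 30 genes (Pom121, Ahctf1 and Nup62 higher, Aaas lower), or 13.3%, and for 20 of the 84 tested probe sets, or 23.8%, against 28.4% of all tested probe sets. In the higher direction it was 15 of 84, where the background was 15.9%, and in the lower direction 5 of 84, where it was 12.5%. These shares were near or under the background.

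Arrays of the same group also differed from each other. The median size of the difference between the replicates was 0.11 log2 with BMP-2 and 0.12 without, and the median size of the treated minus untreated difference was 0.05 log2, a mean of 2 against 2 arrays. For 19 of 30 genes (63.3%) the mean difference between replicates 1 and 2 was larger than that between treatments, against 57.9% of all tested genes. The sign was the same within both replicate numbers for 13 genes, or 43.3%, against 50.7% of all tested genes.

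**Figure D4:**
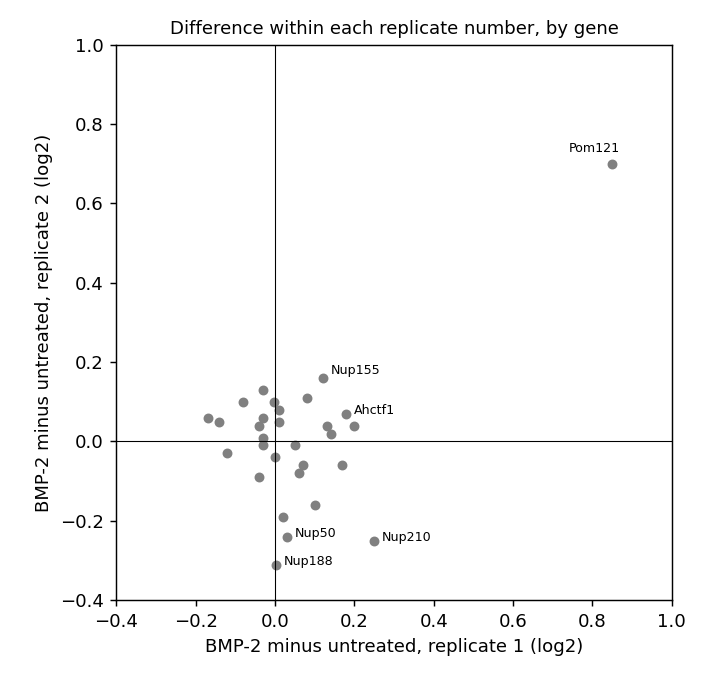
Treated minus untreated difference in log2 signal within replicate 1 (horizontal) and within replicate 2 (vertical), 1 point for each of the 30 genes. Pom121, which prompted the list, lies at 0.85 and 0.70, and the other genes scatter around 0, with Nup210 at 0.25 and -0.25.

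Of 22 genes with more than 1 tested probe set, 14 had probe sets on both sides of 0, 5 had all above and 3 all below. Brightness went with the size of the differences. Among the 61 tested pore probe sets of signal above 500 the median size was 0.05 log2, and among the 23 under 500 it was 0.13. Over all tested probe sets these medians were 0.06 and 0.15. In the dim group 14 of the 23 pore probe sets lay above 0 (60.9%), with a median of 0.13 log2, against 53.2% and a median of 0.02 over all dim tested probe sets. Several of the 23 read the same gene, as those of Gle1 and of Seh1l do, so they do not stand for separate genes. By the brightest probe set of each gene the median was 0.01 log2.

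Other genes of nuclear transport and the envelope were taken from a list of 68 symbols, of which 60 had a tested probe set. By limma none passed (0 of 133 probe sets). At an unadjusted p under 0.05 there were 5, or 3.76%, against 3.07% of all tested probe sets. Of the 60 genes, 30 were higher and 30 lower, and the median difference was -0.00051 log2. Of 16 importin genes 8 were higher, with a median of 0.0003 log2 and a range of -0.19 to 0.07, and of 7 exportin genes 4 were higher, with a median of 0.0035 and a range of -0.07 to 0.12. All 4 Ran cycle genes of this list lay slightly below 0, with a median of -0.06, where 53.0% of all tested genes were higher. Ran and Rangap1, which belong to the same cycle but stand in the pore list, lay at 0.02 and 0.08 log2. The highest differences among the 60 genes were those of Thoc5, a subunit of the mRNA export complex THO, and Lmnb1, which encodes lamin B1. Thoc5 read 1283 and 1804 with BMP-2 and 1071 and 1150 without (0.45 ± 0.15 log2), and Lmnb1 read 6408 and 6647 against 4683 and 5915 (0.31 ± 0.10 log2). Neither pair of groups overlapped, and the limma adjusted p was 1.00 for each. Groups did not overlap for 23.3% of the 60 genes, against 28.8% of all tested genes. The lowest were Syne1, a nesprin of the outer envelope, at -0.38 ± 0.28 log2 on signals of 75.7 to 113, and Kpna6, an importin alpha, at -0.19 ± 0.25. The brightest were Ranbp1, a RAN cofactor (14359 ± 999 against 14590 ± 505), and Kpna2, an importin alpha known to be abundant in stem cells (14023 ± 825 against 13723 ± 244, SD, n = 2).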

How the data were processed

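Transcript levels were measured with one-colour Affymetrix arrays on biotin-labelled cRNA. The deposited values are linear signal intensities per probe set that, according to the submitters' processing notes, the authors computed by MAS5, and in these values the 2%-trimmed mean was the same on every array. Other processing by the authors is not given in the sources used here. Values were log2-transformed without a pseudocount and not normalized further, since array medians lay within 0.21 log2. Without 64 control probe sets, 27022 of 45037 were kept, those with a mean above the 40th percentile (5.73 log2, a signal of 53.0). Symbols came from the platform annotation (34945 probe sets with 1 symbol, 932 with several, 9160 with none). A gene was represented by its brightest tested probe set, and signals of different probe sets do not compare amounts between genes.

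The test was limma's moderated fit (version 3.58.1, under R 4.3.3; group as the only term, variance trend on signal, 2 residual and 7.98 prior degrees of freedom, two-sided, Benjamini-Hochberg over all tested probe sets). Intervals are at 95%. The code was tested on simulated data. With 2 arrays per group a permutation test cannot pass 0.05, and none was run. Every member gene was named, and of the other transport genes the 2 highest, 2 lowest and 2 brightest. The members and lists were chosen with earlier results of these data known. Alternatives were other normalizations, a pseudocount, other filters, no trend, a replicate block, leaving out each array, a looser threshold and averaging the probe sets of each gene. Precision is limited by the number of arrays.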

Additional observations from a re-analysis of the deposited data

How the results depend on the processing

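The count of called pore probe sets was 1 in most alternatives. It was 0 with no filter on dim probe sets and 0 with no intensity trend, and ran from 1 to 2 when an array was left out, the second being the dim Ranbp2 probe set without untreated replicate 1. With each array centred on the median of all its probe sets it was again 1, but that call was the dim Ranbp2 probe set and not Pom121, whose adjusted p by limma was 0.109 there, 0.104 without the filter and 1.00 without the trend, while its difference was 0.78 log2 in each. Over the whole array 5 probe sets passed, against 116 after centring on the median, 17 after centring on the median of the tested probe sets (an alternative chosen after seeing the data), 8 with the filter at the 60th percentile, 0 with no trend (1023 at an unadjusted p under 0.05), 11 at an adjusted p under 0.1 and 16 to 141 when an array was left out. Centring on the median of all probe sets, and leaving out either treated array, gave an unbounded prior, so that the spread was taken from signal alone. A fit without 1 array has 1 array in a group, which is assumed to vary like the others. With the replicate block 11 probe sets passed, of which 1 was a pore probe set (Pom121). Array medians split by replicate number, and arrays of equal number deviated together with r = 0.15 across probe sets. With only 2 pairs, the numbers are not taken as pairing the samples. The median difference of the pore genes stayed between -0.02 and 0.03 log2. Of the 30 genes, 20 changed sign in some alternative and 10, Pom121 among them, did not. Leaving aside the fit without a trend, which changes no difference, 350 of 360 single gene values kept within the spread between replicates or kept their call, 8 moved, and 2, both of Pom121, no longer passed. With the fit without a trend, Pom121 lost its call in 3 settings.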
